A study of Arabidopsis thaliana with 8 samples.

Results

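WRKY transcription factors are a plant family of DNA-binding proteins named after the amino acids that open their conserved domain. The genes described here are 55 loci of Arabidopsis thaliana listed as WRKY members and looked up by locus number in the deposited expression tables, which hold 21960 genes. All 55 were present and 0 were absent. Averaged over all libraries, 40 members were at or above 1 CPM, the reads of a gene scaled to a library size common to all genotypes, and 15 were below it, namely WRKY9, WRKY12, WRKY13, WRKY14, WRKY28, WRKY31, WRKY35, WRKY36, WRKY41, WRKY45, WRKY55, WRKY62, WRKY63, WRKY71 and WRKY75. Outside this list, 17 further protein-coding genes of the annotation encode the WRKY signature, and 7 of them have a row in the tables.

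RNA was sequenced from leaves of 4-week-old plants of 4 genotypes kept in 16 h of light and 8 h of darkness: co-SAIL, a line with a T-DNA insertion in CONSTANS (CO), the regulator that promotes flowering in long days; 35S::miP1a and 35S::miP1b, which overexpress 1 of a pair of related B-box microProteins from the constitutive 35S promoter with a FLAG tag; and the wild type Col-0, the accession to which the others were compared. The labels give 20 °C as growth temperature, and the methods of the study give another value for gene expression work. There were 2 libraries per genotype, 8 in all. The series describes them as technical replicates, so that a genotype and the plants it was sampled from cannot be told apart. Each p-value below rests on read counts and on 1 spread between libraries, taken as common to all genes. That spread was implied by the deposited likelihood ratios. A p-value therefore measures neither a gene's own spread between libraries nor the spread between plants. Whether the libraries of 1 genotype overlap those of another could not be seen, because the tables hold 1 value per genotype. The study asked how far the microProteins act through CO.

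The signature of the family is the heptapeptide WRKYGQK, followed by a zinc finger, and the domain binds the W-box, a DNA element with the core TTGAC. Class I members carry the domain as a pair, class II members carry 1 domain with a C2H2 zinc finger, and class III members carry 1 domain with a C2HC zinc finger. In leaves many members take part in immunity: some are induced by salicylic acid (SA) through the co-activator NPR1, some promote and others limit basal defence, and several act in leaf senescence, heat or phosphate responses. In bulk leaf RNA, fewer cells of a type and less RNA per cell cannot be told apart.

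The signature divides the list. In the RefSeq proteins of the TAIR10.1 assembly, 53 members carry WRKYGQK and 2 carry WRKYGKK, which are WRKY50 and WRKY51. Both are among the 6 members that were lower in co-SAIL and in 35S::miP1b, and the coding sequence of the heptapeptide is shown for those 6, 5′ to 3′ on the coding strand, with the codon of the sixth residue in capitals. It lies in exons at chr5:9147579-9147599 (minus strand) for WRKY50, chr5:25908864-25908884 (plus) for WRKY51, chr5:7496202-7496222 (minus) for WRKY38, chr2:19044313-19044333 (minus) for WRKY46, chr4:15384316-15384336 (plus) for WRKY18 and chr2:10630643-10630663 (plus) for WRKY60.
WRKY50: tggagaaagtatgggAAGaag
WRKY51: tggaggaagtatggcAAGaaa
WRKY38: tggaggaaatatggtCAAaag
WRKY46: tggagaaaatatgggCAAaaa
WRKY18: tggaggaaatacggaCAAaag
WRKY60: tggaggaaatacgggCAAaag
In WRKY50 and WRKY51 the codon is AAG, for lysine. In the other 4 it is CAA, for glutamine.

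W-boxes, here the 6-base words TTGACC and TTGACT on either strand (read as GGTCAA and AGTCAA on the other), were counted in the 250 bases before the annotated start of each gene. They occurred in 20 of 55 members (36.4%), against 28.4% of all protein-coding genes, and 2 or more boxes occurred in 18.2% of members, against 6.18% of all protein-coding genes. Among the 12 members lower in 35S::miP1b the share was 4 of 12 (33.3%), held by WRKY25, WRKY30, WRKY53 and WRKY62. Among the 6 members lower in both co-SAIL and 35S::miP1b it was 0 of 6, which says only that these words are not in this window. A window with 3 boxes (WRKY30, chr5:8154711-8154960), one with 2 (WRKY53, chr4:12393983-12394232) and one with none (WRKY38, chr5:7496991-7497240) are shown as examples of class III members that differ in this respect, all on the minus strand of TAIR10.1, with W-boxes in capitals.
WRKY30: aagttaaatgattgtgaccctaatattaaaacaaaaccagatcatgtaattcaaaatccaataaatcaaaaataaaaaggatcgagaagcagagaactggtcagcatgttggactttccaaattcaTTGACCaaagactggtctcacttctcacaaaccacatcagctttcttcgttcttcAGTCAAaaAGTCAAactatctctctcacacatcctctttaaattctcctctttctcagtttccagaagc
WRKY53: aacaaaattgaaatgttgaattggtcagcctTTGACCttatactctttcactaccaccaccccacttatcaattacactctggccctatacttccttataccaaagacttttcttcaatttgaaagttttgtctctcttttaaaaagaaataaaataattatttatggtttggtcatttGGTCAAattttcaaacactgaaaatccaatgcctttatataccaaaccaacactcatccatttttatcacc
WRKY38: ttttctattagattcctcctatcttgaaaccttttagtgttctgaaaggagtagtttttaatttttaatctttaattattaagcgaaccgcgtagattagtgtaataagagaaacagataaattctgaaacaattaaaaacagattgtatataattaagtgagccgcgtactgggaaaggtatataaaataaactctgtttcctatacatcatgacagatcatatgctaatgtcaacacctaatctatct
A match is a string in the sequence and not a measured binding site.

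Over its 2 libraries, each genotype had 31613348 to 35792618 effective reads. The floor set for log2 changes, 3 reads, thus equals 0.0838 to 0.0949 CPM. Tests used the recovered reads as they were, also below this floor. The transgenes were seen in their own lines: miP1a was at 3701 CPM in 35S::miP1a and below 1 CPM in the other 3 genotypes, and miP1b was at 1046 CPM in 35S::miP1b and at 0.0317 to 0.119 CPM elsewhere. CO itself was at 5.56 CPM in co-SAIL and 4.94 CPM in Col-0, and since reads are summed over the whole gene, this level does not check the insertion. The 4 leaf mesophyll markers summed to 31938 to 36839 CPM in the 4 genotypes. Of these 4, LHCB1.1 was called: it was at 274 CPM in 35S::miP1a and 112 CPM in Col-0 (likelihood ratio test, adjusted p = 7.9e-12), and at 76.5 CPM in 35S::miP1b, lower than in 35S::miP1a (adjusted p = 7.9e-24 in the same likelihood ratio test). Its part in the WRKY changes of these lines was not tested. The 4 floral identity genes summed to 0.358 to 0.664 CPM, and the root marker PYK10, the 1 of 2 root markers with a row in the tables, was at 0 to 0.363 CPM. PYK10 was called higher in 35S::miP1b, with 13 reads in 35S::miP1b and 0 in Col-0 (likelihood ratio test, adjusted p = 8.1e-04), and its part in the WRKY changes of 35S::miP1b was not tested.

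In co-SAIL, 6 of 55 members fell and none rose. The members that fell were WRKY18, WRKY38, WRKY46, WRKY50, WRKY51 and WRKY60, with log2 changes of -2.20 to -0.90. A gene was called when a negative binomial likelihood ratio test on the reads recovered for each genotype returned an adjusted p below 0.001 over all genes. Of all genes, 0.988% were called lower and 0.187% higher, and the 6 members are 10.9% of the list. At an unadjusted p below 0.05 the likelihood ratio test found 18 lower members (7.45% of all genes were lower) and 1 higher member, WRKY44 (4.98% of all genes were higher). The median change of the 52 members with a log2 value was -0.32, against -0.00 for all genes, and 38 members were below Col-0 and 14 above. With a minimum fold change of 4, the study's own limit, 1 member was lower (WRKY51, against 0.196% of all genes) and 0 were higher (0.0501% of all genes). With a dispersion of 0.04 in place of the fitted 0.0132, only WRKY51 remained called.

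In 35S::miP1b, 12 of 55 members fell and none rose: WRKY18, WRKY25, WRKY30, WRKY38, WRKY40, WRKY46, WRKY50, WRKY51, WRKY53, WRKY60, WRKY62 and WRKY70. They are 21.8% of the list, against 3.70% of all genes called lower and 0.988% called higher. At an unadjusted p below 0.05 the same test found 22 lower members (14.7% of all genes were lower) and 3 higher members, WRKY2, WRKY12 and WRKY42 (10.9% of all genes were higher). The median change was -0.38 over 51 members, against -0.01 for all genes, with 38 below Col-0 and 13 above. At the 4-fold minimum 7 members were lower (WRKY30, WRKY38, WRKY40, WRKY46, WRKY51, WRKY60 and WRKY62, against 1.39% of all genes) and 0 were higher (0.0956% of all genes). With a dispersion of 0.04 the calls on WRKY18, WRKY25, WRKY50 and WRKY70 were lost, and with 0.16 those on WRKY38 and WRKY62 were the 2 that remained.

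In 35S::miP1a WRKY44 and WRKY75 rose, and WRKY29, WRKY38 and WRKY58 fell. The 2 higher members are 3.64% of the list, against 1.98% of all genes, and the 3 lower members are 5.45%, against 1.45%. At an unadjusted p below 0.05, 13 members were higher (11.1% of all genes) and 13 were lower (10.7% of all genes). Both higher members and 0 lower members passed the 4-fold minimum, which 0.565% of all genes passed upwards and 0.314% downwards. The median change was 0.06 over 51 members, against -0.01 for all genes, with 28 above Col-0 and 23 below. WRKY54 lay just outside the threshold, at a log2 change of -0.72 ± 0.17 (SE) and an adjusted p of 0.00111 in the likelihood ratio test. With a dispersion of 0.04 none of the 3 lower calls remained, and with 0.16 neither higher call did. The 3 comparisons share the Col-0 libraries.

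**Figure D1:**
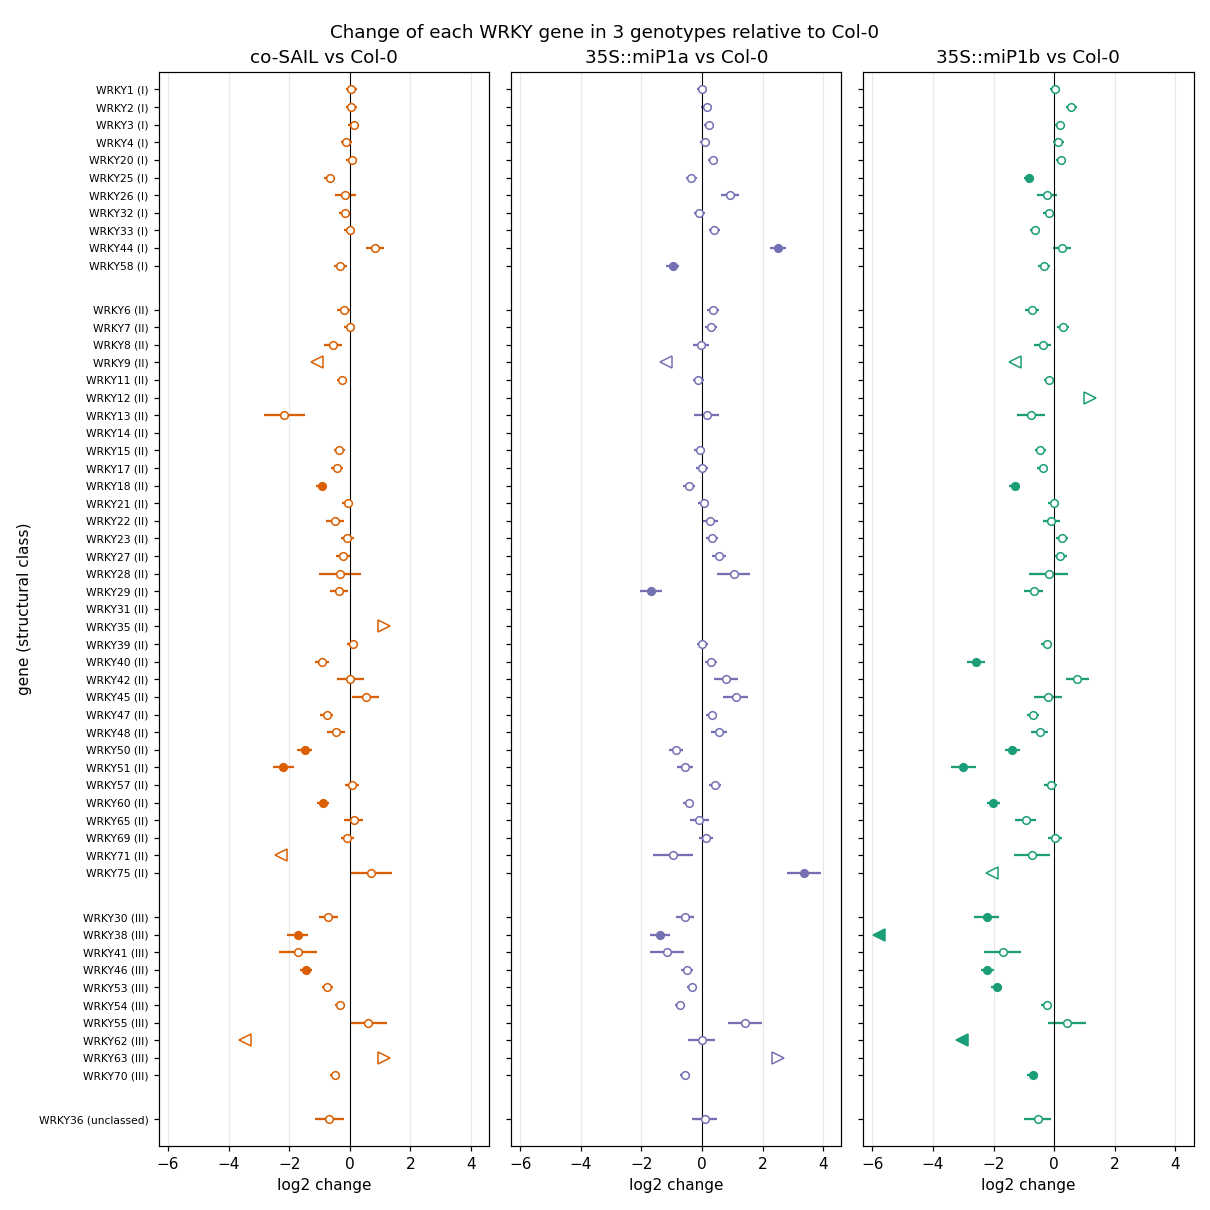
Log2 change of each of the 55 members in co-SAIL, 35S::miP1a and 35S::miP1b relative to Col-0 (x axis), with members in rows by structural class. Circles are estimates with their SE, filled where the adjusted p was below 0.001; triangles are members with 3 or fewer reads in 1 genotype, at their ratio or bound, and members with 3 or fewer reads in both have no mark. Filled marks in co-SAIL and 35S::miP1b all lie left of 0, and in 35S::miP1a WRKY44 and WRKY75 lie to the right of it.

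By class, 6 of 10 class III members fell in 35S::miP1b, where 3.70% of all genes were called lower, with a median change of -1.90 over the 9 that have a log2 value. In the same line 5 of 33 class II members fell (median -0.42) and 1 of 11 class I members (median 0.03). In co-SAIL, where 0.988% of all genes were called lower, 2 members of class III fell (median -0.73), 4 of class II (median -0.34) and 0 of class I (median -0.01). In 35S::miP1a, where 1.98% of all genes were called higher and 1.45% lower, 1 class III member fell (median -0.53). In that line 1 class II member rose and 1 fell (median 0.13), and 1 class I member rose and 1 fell (median 0.16). WRKY36 was not put in a class, because the zinc finger patterns used here were not found in its protein.

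The SA state of each genotype was read from 10 receptor and output genes. In co-SAIL 6 of them fell and 0 rose, with a median log2 change of -1.07. In 35S::miP1a 2 fell (NIMIN1 and NIMIN2, which encode NPR1-binding proteins) and 1 rose (PR2, a β-1,3-glucanase), with a median of -0.16. In 35S::miP1b 7 fell and 0 rose, with a median of -2.19. PR1, the standard reporter of SA signalling, had 918 reads in co-SAIL, 3193 in 35S::miP1a, 4 in 35S::miP1b and 4747 in Col-0. The receptor genes NPR1, NPR3 and NPR4 were called in none of the 3 lines, with log2 changes of -0.44 to 0.41.

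SA synthesis genes and their regulators gave the same order of medians. Of 10, 3 fell in co-SAIL (ICS1, PBS3 and PAD4, median -0.80), 0 were called in 35S::miP1a (median 0.22) and 8 fell in 35S::miP1b (median -1.14). ICS1, which encodes the isochorismate synthase that makes the SA precursor, was at 7.22 CPM in co-SAIL, 18.1 CPM in 35S::miP1a, 5.79 CPM in 35S::miP1b and 15.1 CPM in Col-0. A member was taken to follow the SA state if it was called in the direction of the output list in both lines where the list's median was over 0.5 from 0, and not called the other way in the third. That held for WRKY18, WRKY38, WRKY46, WRKY50, WRKY51 and WRKY60. Because the output list fell in both lines, these are the members already described as lower in both, and not a separate result. Of them, WRKY38 was also called lower in 35S::miP1a, where the output list's median was -0.16, a fall that the rule does not exclude. The share of all genes that meet the rule is not given, so the count cannot be set against it. At an adjusted p below 0.05, 11 members met the rule (WRKY25, WRKY40, WRKY47, WRKY53 and WRKY62 joined them), and with a dispersion of 0.04 it was WRKY51 alone and with 0.16 it was 0 members.

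**Figure D2:**
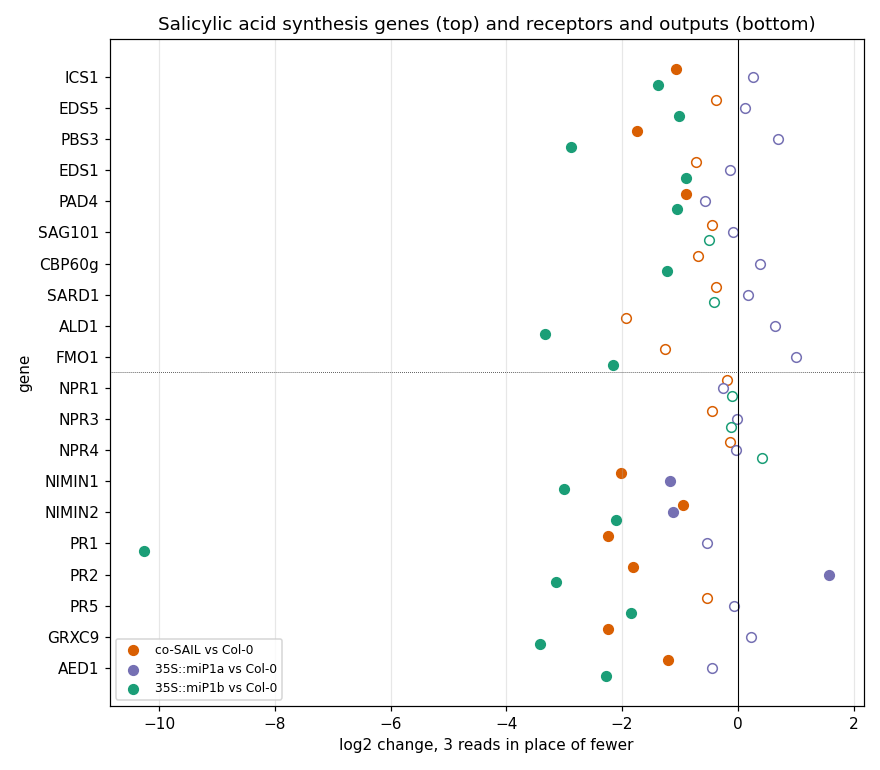
Log2 change relative to Col-0 (x axis) of 10 SA synthesis genes and regulators (above the dotted line) and 10 SA receptors and outputs (below it) in 3 genotypes, by colour. Filled points have an adjusted p below 0.001, and 3 reads stand in place of fewer; PR1 in 35S::miP1b lies at -10.26, and PR2 in 35S::miP1a is the 1 filled point to the right of 0.

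Among class III members linked to SA, WRKY38 (AT5G22570), which is induced by SA through NPR1 and in Arabidopsis limits basal resistance, was the 1 member that fell in all 3 lines. It had 29 reads in co-SAIL, 39 in 35S::miP1a, 2 in 35S::miP1b and 105 in Col-0. The log2 change was -1.72 ± 0.34 in co-SAIL and -1.38 ± 0.32 in 35S::miP1a (likelihood ratio test, adjusted p = 2.0e-05 and 2.6e-04). In 35S::miP1b the ratio of Col-0 to 35S::miP1b was 54.4, with a 95% counting interval of 14.7 to 455 (likelihood ratio test, adjusted p = 3.2e-22). Col-0 had the highest level and 35S::miP1b a level under the floor.

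WRKY62 (AT5G01900), which acts together with WRKY38, had 2 reads in co-SAIL, 23 in 35S::miP1a, 0 in 35S::miP1b and 24 in Col-0. It was thus at the same level in 35S::miP1a and Col-0, within counting error, and at least 8.29-fold lower in 35S::miP1b, counted against 3 reads (likelihood ratio test, adjusted p = 6.4e-07). In co-SAIL the ratio of Col-0 to co-SAIL was 11, with a counting interval of 2.73 to 95.9, and the adjusted p of 0.00128 in the likelihood ratio test missed the threshold.

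WRKY46, WRKY53 and WRKY70 are SA-responsive and contribute to basal resistance to Pseudomonas syringae. WRKY46 (AT2G46400) was at 7.39 CPM in co-SAIL, 14.2 CPM in 35S::miP1a, 4.36 CPM in 35S::miP1b and 20.1 CPM in Col-0. It fell in co-SAIL by 1.45 ± 0.20 and in 35S::miP1b by 2.21 ± 0.21 on the log2 scale (likelihood ratio test, adjusted p = 1.6e-10 and 8.8e-24). In 35S::miP1a its change was -0.50, which was not called.

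WRKY53 (AT4G23810), also a promoter of leaf senescence, was at 18.2 CPM in co-SAIL, 24.2 CPM in 35S::miP1a, 8.15 CPM in 35S::miP1b and 30.5 CPM in Col-0. Its change of -1.90 ± 0.19 in 35S::miP1b passed the threshold (likelihood ratio test, adjusted p = 1.6e-20), and that of -0.75 ± 0.18 in co-SAIL did not (adjusted p = 0.00307 in the same likelihood ratio test). The WRKY53 model overlaps AT4G23800 on the opposite strand over 341 bases, and the library kit named in the sources does not mark strand. AT4G23800 had a log2 change of -0.58 in 35S::miP1b and was not called.

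WRKY70 (AT3G56400), which in Arabidopsis promotes SA responses and restrains senescence, was the most abundant member per length, at 92.9 CPM per kb of exon in Col-0. It was at 96.5 CPM in co-SAIL, 92.5 CPM in 35S::miP1a, 83.6 CPM in 35S::miP1b and 137 CPM in Col-0. The call was made in 35S::miP1b, with a change of -0.71 ± 0.17 (likelihood ratio test, adjusted p = 7.1e-04). Its changes of -0.50 in co-SAIL and -0.56 in 35S::miP1a were not called, and between 35S::miP1b and 35S::miP1a it changed by -0.15 ± 0.17 (likelihood ratio test, adjusted p = 0.812).

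WRKY54 (AT2G40750), its closest relative in function, followed at 37.5 CPM per kb in Col-0. It was at 43.0 CPM in co-SAIL, 32.5 CPM in 35S::miP1a, 45.0 CPM in 35S::miP1b and 53.6 CPM in Col-0. The difference between 35S::miP1b and 35S::miP1a, 0.47 ± 0.18 on the log2 scale, was not called (likelihood ratio test, adjusted p = 0.0967). WRKY30 (AT5G24110), a gene responsive to reactive oxygen species whose protein can bind WRKY53, was at 1.52 CPM in co-SAIL, 1.67 CPM in 35S::miP1a, 0.53 CPM in 35S::miP1b and 2.48 CPM in Col-0. Its change in 35S::miP1b was -2.23 ± 0.40 (likelihood ratio test, adjusted p = 7.1e-08). The remaining class III members, WRKY41, WRKY55 and WRKY63, were below 1 CPM and were not called.

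**Figure D3:**
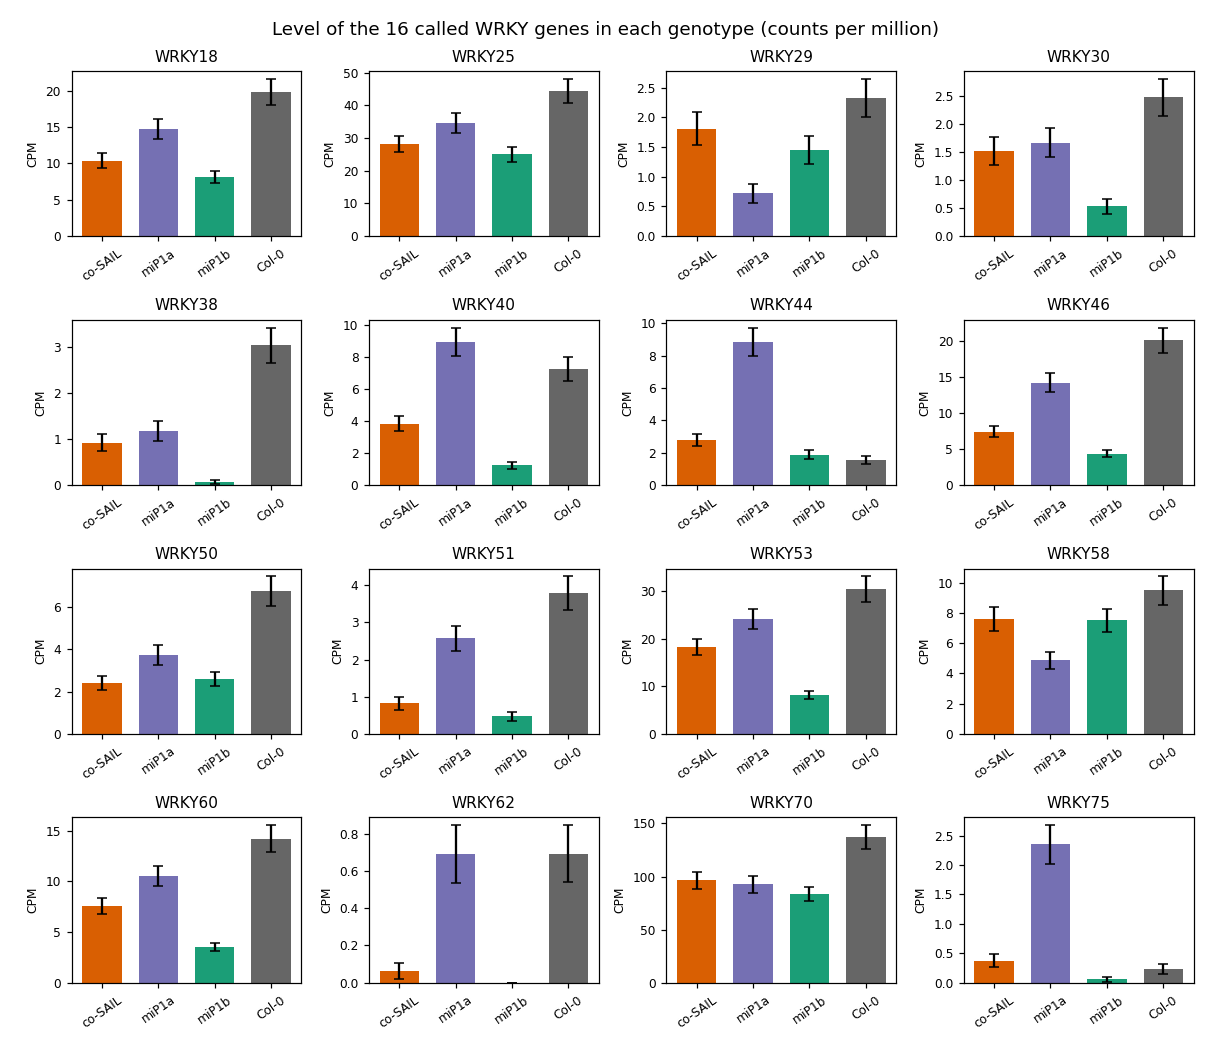
Level in CPM (y axis, from 0) of the 16 members called in at least 1 comparison with Col-0, in co-SAIL, 35S::miP1a, 35S::miP1b and Col-0. Bars are the genotype's value from 2 libraries and error bars are 1 SE from the reads and a dispersion of 0.0132; WRKY75 and WRKY44 peak in 35S::miP1a, at 2.35 and 8.85 CPM.

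WRKY18, WRKY40 and WRKY60 form group IIa, whose proteins bind each other and limit defence to Pseudomonas syringae in Arabidopsis. All 3 fell in 35S::miP1b. WRKY18 (AT4G31800) was at 10.4 CPM in co-SAIL, 14.8 CPM in 35S::miP1a, 8.10 CPM in 35S::miP1b and 19.9 CPM in Col-0, with changes of -0.93 ± 0.19 in co-SAIL and -1.30 ± 0.19 in 35S::miP1b (likelihood ratio test, adjusted p = 1.3e-04 and 1.8e-09). WRKY60 (AT2G25000) was at 7.60 CPM in co-SAIL, 10.5 CPM in 35S::miP1a, 3.52 CPM in 35S::miP1b and 14.2 CPM in Col-0, with changes of -0.90 ± 0.20 and -2.01 ± 0.22 (likelihood ratio test, adjusted p = 6.1e-04 and 3.2e-18). Both genes were highest in Col-0, but their changes of -0.43 (WRKY18) and -0.44 (WRKY60) in 35S::miP1a were not called.

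WRKY40 (AT1G80840) had another order of levels, with 35S::miP1a above Col-0 by a difference that was not called. It was at 3.81 CPM in co-SAIL, 8.94 CPM in 35S::miP1a, 1.22 CPM in 35S::miP1b and 7.25 CPM in Col-0. Its change was -2.57 ± 0.29 in 35S::miP1b (likelihood ratio test, adjusted p = 2.6e-19), -0.93 ± 0.23 in co-SAIL (adjusted p = 0.00335, not called) and 0.30 ± 0.21 in 35S::miP1a (not called). WRKY40 overlaps AT1G80850 on the opposite strand over 51 bases, and that gene had log2 changes of -0.22 in co-SAIL, -0.07 in 35S::miP1a and 0.07 in 35S::miP1b.

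WRKY50 and WRKY51, the WRKYGKK pair, are needed for the SA- and low-oleate-triggered repression of jasmonate responses. WRKY50 (AT5G26170) was at 2.40 CPM in co-SAIL, 3.73 CPM in 35S::miP1a, 2.6 CPM in 35S::miP1b and 6.75 CPM in Col-0. WRKY51 (AT5G64810) was at 0.822 CPM in co-SAIL, 2.57 CPM in 35S::miP1a, 0.474 CPM in 35S::miP1b and 3.79 CPM in Col-0. In co-SAIL the log2 change was -1.49 ± 0.25 for WRKY50 and -2.20 ± 0.35 for WRKY51 (likelihood ratio test, adjusted p = 4.2e-07 and 3.1e-09), and WRKY51 was the 1 member past the 4-fold minimum there. In 35S::miP1b it was -1.38 ± 0.24 for WRKY50 and -3.0 ± 0.41 for WRKY51 (likelihood ratio test, adjusted p = 4.0e-07 and 1.5e-15). Neither was called in 35S::miP1a, where the changes were -0.86 and -0.56.

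Of the class I members, WRKY25 (AT2G30250), which acts in heat tolerance and is phosphorylated downstream of MAP kinase 4, was at 28.1 CPM in co-SAIL, 34.6 CPM in 35S::miP1a, 25.0 CPM in 35S::miP1b and 44.4 CPM in Col-0. Its change in 35S::miP1b was -0.83 ± 0.18 (likelihood ratio test, adjusted p = 9.4e-05), and in co-SAIL it was -0.66 ± 0.18 (adjusted p = 0.0107, not called). WRKY33 (AT2G38470), which activates camalexin genes and is required for resistance to Botrytis cinerea, was at 34.0 CPM in co-SAIL, 44.9 CPM in 35S::miP1a, 22 CPM in 35S::miP1b and 34.1 CPM in Col-0. It was not called against Col-0 in any line, with an adjusted p of 0.00602 in 35S::miP1b (likelihood ratio test, log2 change -0.63 ± 0.18).

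WRKY58 (AT3G01080), which limits systemic acquired resistance, was at 7.62 CPM in co-SAIL, 4.85 CPM in 35S::miP1a, 7.51 CPM in 35S::miP1b and 9.48 CPM in Col-0. It fell in 35S::miP1a by 0.97 ± 0.22 on the log2 scale (likelihood ratio test, adjusted p = 2.6e-04). WRKY44 (AT2G37260), known as TTG2 and required for trichome and seed coat development, was at 2.79 CPM in co-SAIL, 8.85 CPM in 35S::miP1a, 1.87 CPM in 35S::miP1b and 1.56 CPM in Col-0. It rose in 35S::miP1a by 2.50 ± 0.27 (likelihood ratio test, adjusted p = 3.9e-20), and its change of 0.83 ± 0.30 in co-SAIL was not called.

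In class II, WRKY29 and WRKY75 were called in 35S::miP1a. WRKY29 (AT4G23550), a target of the flagellin-triggered MAP kinase cascade, had 57 reads in co-SAIL, 24 in 35S::miP1a, 52 in 35S::miP1b and 81 in Col-0, a change of -1.69 ± 0.37 in 35S::miP1a (likelihood ratio test, adjusted p = 7.5e-05). Its change of -0.68 ± 0.31 in 35S::miP1b was not called, and the lines did not pass the threshold against each other (35S::miP1b over 35S::miP1a, 1.01 ± 0.39, likelihood ratio test, adjusted p = 0.102). WRKY75 (AT5G13080), which acts in phosphate starvation responses and promotes leaf senescence, had 12 reads in co-SAIL, 79 in 35S::miP1a, 2 in 35S::miP1b and 8 in Col-0. The change in 35S::miP1a was 3.36 ± 0.56 (likelihood ratio test, adjusted p = 1.4e-11). In 35S::miP1b the ratio of Col-0 to the line was 4.14 with a counting interval of 0.827 to 40.1, which includes no difference.

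The other 39 members were called in none of the 3 lines. Of these, 26 were at or above 1 CPM, and all 26 stayed within 2-fold of Col-0 in each line. Their log2 changes were -0.76 (WRKY47) to 0.13 (WRKY65) in co-SAIL and -0.72 (WRKY54) to 0.92 (WRKY26) in 35S::miP1a. In 35S::miP1b they were -0.94 (WRKY65) to 0.77 (WRKY42). Some uncalled members below 1 CPM had larger estimates with a wide SE. Examples are WRKY13 (-2.16 ± 0.67) and WRKY41 (-1.71 ± 0.64) in co-SAIL and WRKY55 (1.41 ± 0.56) in 35S::miP1a. Per kb of exon in Col-0, WRKY3 with 21.1 CPM and WRKY1 with 19.9 CPM were among the 6 most abundant members, beside WRKY53 with 20.1 CPM, levels closer to each other than their SE. Of the uncalled members, 4 had fewer than 10 reads over all genotypes (WRKY9, WRKY12, WRKY14 and WRKY31), which leaves little depth to compare levels: WRKY9 had 0 reads in co-SAIL, 35S::miP1a and 35S::miP1b and 7 in Col-0, and WRKY12 had 7 reads in 35S::miP1b and 0 in Col-0, and neither passed the threshold (likelihood ratio test, lowest adjusted p = 0.0192 and 0.0233, both in 35S::miP1b). Gene models on the opposite strand also overlap WRKY29 (251 bases), WRKY33 (272 and 26 bases) and, among members that were not called, WRKY1, WRKY2, WRKY4, WRKY9, WRKY41 and WRKY69, and reads from the overlaps cannot be assigned to 1 strand.

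Partners and outputs of WRKY proteins were read from 2 further lists. Of 11 genes for VQ proteins, which can bind WRKY proteins, and for kinases of the MAP kinase cascades upstream of them, SIB1, a VQ protein that binds WRKY33, was the 1 called: it was at 26.2 CPM in co-SAIL, 17.0 CPM in 35S::miP1a, 15.5 CPM in 35S::miP1b and 41.1 CPM in Col-0. It fell in 35S::miP1a by 1.27 and in 35S::miP1b by 1.40 on the log2 scale (likelihood ratio test, adjusted p = 4.2e-10 and 1.6e-12). The list medians were -0.13 in co-SAIL, -0.18 in 35S::miP1a and -0.41 in 35S::miP1b.

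Of 7 camalexin and immune output genes, 6 have a row in the tables. In 35S::miP1a 3 of the 6 rose (PAD3, CYP71A13 and SAG13) and 1 fell (FRK1), with a median of 0.46. In 35S::miP1b 4 fell (PAD3, CYP71A12, FRK1 and SAG13) and 0 rose, with a median of -4.44. In co-SAIL 2 fell (CYP71A12 and FRK1) and 0 rose, with a median of -0.59. PAD3, the cytochrome P450 of the last step of camalexin synthesis and a target of WRKY33, had 378 reads in co-SAIL, 849 in 35S::miP1a, 24 in 35S::miP1b and 388 in Col-0. SAG13, a senescence-associated gene, had 60 reads in co-SAIL, 696 in 35S::miP1a, 5 in 35S::miP1b and 137 in Col-0. Both were highest in 35S::miP1a and lowest in 35S::miP1b.

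The lines overexpressing the related microProteins differed from each other. In 35S::miP1b relative to 35S::miP1a, 14 of 55 members were lower (25.5%, against 2.89% of all genes) and 0 were higher (against 0.323% of all genes). At an unadjusted p below 0.05 the likelihood ratio test found 28 lower members (9.90% of all genes were lower) and 5 higher members (5.61% of all genes were higher). The lower members were WRKY6, WRKY18, WRKY30, WRKY33, WRKY38, WRKY40, WRKY44, WRKY46, WRKY47, WRKY51, WRKY53, WRKY60, WRKY62 and WRKY75. The median over 51 members was -0.52, against -0.00 for all genes, and 42 members were below 35S::miP1a and 9 above. With a dispersion of 0.04 the count was 9, and the calls on WRKY6, WRKY18, WRKY30, WRKY33 and WRKY47 were lost. With 0.16 it was 2 (WRKY62 and WRKY75).

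For WRKY40 the difference was -2.87 ± 0.29 on the log2 scale (likelihood ratio test, adjusted p = 5.3e-25). For WRKY75 the ratio of 35S::miP1a to 35S::miP1b was 42.2, with a counting interval of 11.3 to 354 (likelihood ratio test, adjusted p = 2.3e-17). WRKY33 (-1.03 ± 0.18), WRKY6 (-1.08 ± 0.21) and WRKY47 (-1.02 ± 0.20) differed between the lines although neither line was called against Col-0 for them (likelihood ratio test, adjusted p = 4.9e-07, 1.5e-05 and 1.4e-05). None of these calls remained at a dispersion of 0.04. WRKY6 (AT1G62300), which acts in senescence and phosphate transport, was at 5.0 CPM in 35S::miP1b and 10.6 CPM in 35S::miP1a, and WRKY47 (AT4G01720) was at 7.29 CPM in 35S::miP1b and 14.8 CPM in 35S::miP1a. WRKY25, WRKY50 and WRKY70, lower in 35S::miP1b than in Col-0, were not called between the lines, with differences of -0.46, -0.52 and -0.15.

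**Figure D4:**
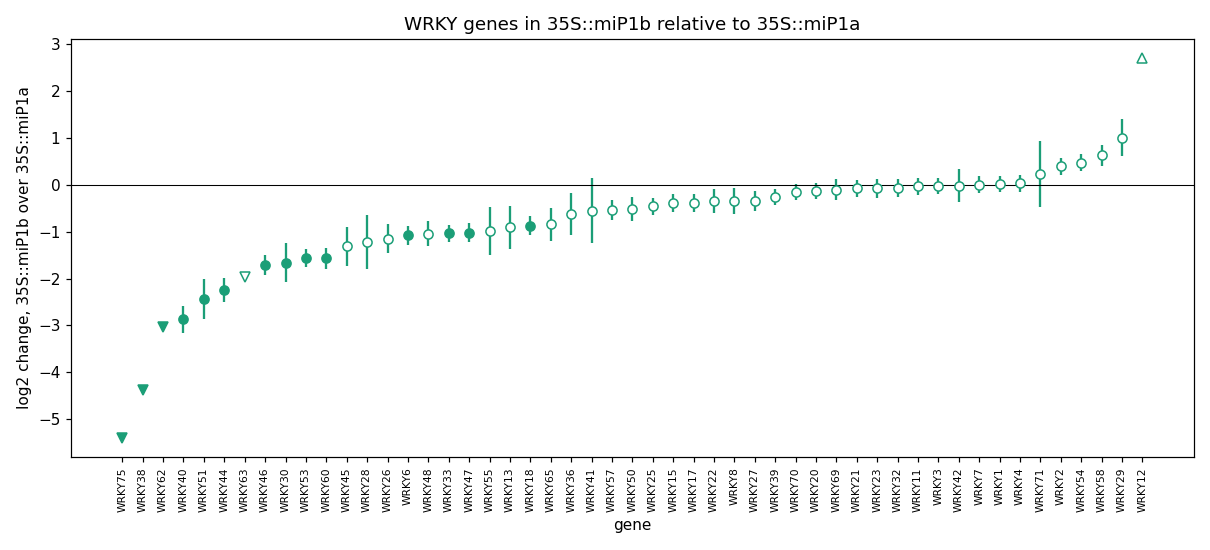
Log2 change of 35S::miP1b over 35S::miP1a (y axis) for each member with more than 3 reads in at least 1 of the lines, in ascending order. Circles are estimates with their SE, triangles are ratios or bounds where 1 line had 3 or fewer reads, and filled marks have an adjusted p below 0.001; all 14 filled marks lie below 0.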

How the data were processed

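Leaf RNA of 4 genotypes (2 libraries each) was sequenced. The authors clipped reads with Trimmomatic 0.32, mapped them to TAIR10 with Bowtie in RobiNA and fitted edgeR 2.6.12. The deposited log2 values are the mean abundance per gene over all libraries, in log2 CPM, and the fold change of Col-0 over each genotype. The deposited score is a likelihood ratio for every gene and comparison (1 degree of freedom). The authors' p-value and FDR columns were not used, and the authors' fold changes and ratios served only to recover reads and dispersion; none is printed.

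The averages and fold changes were solved for the reads of a gene in each genotype, with a prior of 0.5 reads over all libraries. Effective library sizes were set by 353 genes that had a single read among the 8 libraries. Of the recovered values, 100% were within 0.1 of a whole number for genes under 20 reads in total, 94.1% from 20 to 100 and 51.7% from 100 to 500. A common dispersion was fitted so that the median recomputed likelihood ratio equalled the deposited one; it was 0.0132 (coefficient of variation 11.5%), and the 1st and 99th percentiles of recomputed over deposited ratios lay between 0.997 and 1.009. Genotypes were compared with a two-sided negative binomial likelihood ratio test on these reads, with Benjamini-Hochberg adjustment over 21960 genes and a threshold of 0.001. Errors are SE from reads and dispersion. Where 1 genotype had 1 to 3 reads the ratio is given with an exact 95% interval, which covers counting error only, and at 0 reads a bound against 3 reads over the group. In list medians 3 reads stand in place of fewer. The calculation was tested on simulated data built with the same averaging formula, which cannot check that formula against the authors' fit.

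The members, lists and rules were chosen with earlier results of these data known. Values are given for members called against Col-0 and for 11 fixed examples. Others outside that rule (WRKY1, WRKY2, WRKY3, WRKY6, WRKY9, WRKY12, WRKY13, WRKY26, WRKY41, WRKY42, WRKY47, WRKY55, WRKY65) were named after their values were seen. Alternatives were dispersions of 0.04 and 0.16, an adjusted p below 0.05, a 4-fold minimum, genes with at least 1 CPM, and changes centred on the median of those genes. Single libraries were not analysed here. Sequences, positions, exon lengths and classes come from RefSeq's TAIR10.1, and no coordinate of the authors was used. The software was NumPy 2.4.6 and SciPy 1.17.1 for the tests, pandas 2.3.3 for the tables and matplotlib 3.10.9 for the plots, under Python 3.11.15.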

Additional observations from a re-analysis of the deposited data

Results flagged for a closer look

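Between the overexpression lines, 14 members differed in a direct likelihood ratio test of 35S::miP1b against 35S::miP1a, and each was lower in 35S::miP1b. On the log2 scale the differences were -1.08 for WRKY6, -0.87 for WRKY18, -1.66 for WRKY30, -1.03 for WRKY33, -2.87 for WRKY40, -2.24 for WRKY44, -1.71 for WRKY46, -1.02 for WRKY47, -2.44 for WRKY51, -1.57 for WRKY53 and -1.57 for WRKY60. As ratios of 35S::miP1a to 35S::miP1b they were 20.8 for WRKY38 and 42.2 for WRKY75, and at least 8.18 for WRKY62, which had 0 reads in 35S::miP1b. The test compares 2 libraries of each line, and other transgenic lines were not analysed here.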

How the results depend on the processing

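With a dispersion of 0.04, the count of lower members was 1 in co-SAIL, 0 in 35S::miP1a, 8 in 35S::miP1b and 9 in 35S::miP1b relative to 35S::miP1a. With 0.16 it was 0 in co-SAIL, 0 in 35S::miP1a, 2 in 35S::miP1b and 2 between the lines, and the count of higher members in 35S::miP1a was 0; fewer calls follow from a larger assumed spread. With an adjusted p below 0.05, 12 members were lower in co-SAIL, 7 in 35S::miP1a, 17 in 35S::miP1b and 18 between the lines. At that threshold 3 were higher in 35S::miP1a and 2 in 35S::miP1b. With a minimum fold of 4, the lower members numbered 1 in co-SAIL, 0 in 35S::miP1a, 7 in 35S::miP1b and 6 between the lines. Shares of all genes are given above for the 4-fold minimum against Col-0. They are not given for the other alternatives or for that minimum between the lines, so those counts cannot be set against all genes. Among genes with at least 1 CPM, 1 member was higher in 35S::miP1a, since WRKY75 is below that level. Centring changed no call and reversed no direction on the 80 values of single members examined. The other alternatives leave each log2 change as it is, so no direction could reverse under them. Of 37 calls on single members, 17 were lost at a dispersion of 0.04 and 33 at 0.16. Depth limits the members under 1 CPM. No paired analysis was possible because the tables hold no values per library, which also means that no library could be left out.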
